A study of Mus musculus with 21 samples.

Results

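The tRNA genes of the glycine isoacceptor GlyGCC, named for the GCC anticodon, were followed through 3 assays in back skin of WT and NSun2-/- mice. Members were all genes whose name ends in GlyGCC. They made up 43 of the 3283 predicted tRNA genes in the Pol III table and 17 of the 1143 genes in the tRNA-seq table, and 13 of them could be placed in the mouse genome (mm9). RNA bisulphite sequencing and tRNA-seq each had 4 libraries of WT and 4 of NSun2-/- skin, while Pol III ChIP-seq had 2 libraries of WT skin, a single NSun2-/- library and an input for each genotype (2 inputs). All tissue was total back skin of male C57Bl6/J CBA F1 mice at postnatal day 25, when hair follicles grow. NSun2-/- mice carried the gene trap D014D11, WT mice came from the same breedings, and each chromatin sample was pooled from 3 mice. One WT library of the ChIP-seq has PolII in its title but the same antibody number as the others.

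NSun2 is an RNA methyltransferase that places 5-methylcytosine (m5C) in tRNAs at the junction of the variable loop and the TΨC arm, while Dnmt2 methylates C38 in the anticodon loop of a few tRNAs, GlyGCC among them. tRNA genes are transcribed by RNA polymerase III (Pol III), the transcript receives a CCA end that is not encoded in the gene, and the mature tRNA can be cut near the anticodon into a 5′ and a 3′ fragment. 5′ fragments of glycine tRNAs are among the common small RNAs of mouse tissues. In bisulphite-treated RNA an unmethylated cytosine is read as T, so that the percent of unconverted reads is the measure of m5C, though it also counts cytosines that escaped conversion.

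The 13 placed loci held 4 different sequences of 71 nt, which are printed because both the m5C sites and the fragments are read off them. Letters are the genomic sequence (NCBIM37, the Ensembl name of mm9), 5′ to 3′ on the strand of the tRNA. Capitals mark, from left to right, the anticodon, C38 and C48 to C50:
8 loci (shown for chr1.trna699): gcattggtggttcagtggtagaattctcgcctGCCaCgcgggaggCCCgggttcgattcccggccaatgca
chr1.trna702, chr1.trna704 and chr1.trna706: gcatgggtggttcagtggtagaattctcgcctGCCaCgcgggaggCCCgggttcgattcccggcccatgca
chr8.trna560: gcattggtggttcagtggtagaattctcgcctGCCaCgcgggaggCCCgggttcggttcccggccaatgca
chr1.trna1392: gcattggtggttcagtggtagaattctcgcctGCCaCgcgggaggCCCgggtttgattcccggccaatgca

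Against the sequence of the 8 identical loci, chr1.trna702, chr1.trna704 and chr1.trna706 carry T5G and A66C, chr8.trna560 carries A56G and chr1.trna1392 carries C54T, counted in nucleotides from the 5′ end of the gene with the base of the 8 loci first. No locus differs in the anticodon arm or at C48 to C50. Structural positions run ahead of the nucleotide count already 5′ of the anticodon, where C27 is nucleotide 26. C38 is nucleotide 37, and C48, C49 and C50 are nucleotides 46, 47 and 48.

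Of the 8 identical loci, 4 lie between genes, chr1.trna699 (chr1:172975116-172975186, plus strand), chr11.trna1819 (chr11:68932296-68932366, minus), chr13.trna77 (chr13:21802449-21802519, plus) and chr13.trna110 (chr13:23609072-23609142, plus). The other 4 lie in introns. chr2.trna1747 (chr2:57034805-57034875, minus) sits in the lincRNA 4930555B11Rik on the opposite strand, chr3.trna878 (chr3:84032933-84033003, minus) in Trim2 on the same strand, and chr8.trna887 (chr8:113154453-113154523, minus) and chr8.trna886 (chr8:113155146-113155216, minus) in Vac14 on the opposite strand. The loci with another sequence are all intergenic, at chr1:172996762-172996832, chr1:173004433-173004503 and chr1:173012007-173012077 on the plus strand for chr1.trna702, chr1.trna704 and chr1.trna706, chr8:113586461-113586531 on the plus strand for chr8.trna560, and chr1:74863321-74863391 on the minus strand for chr1.trna1392.

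The labels of the bisulphite libraries were checked on genes, those of the other libraries could not be in this way. Nsun2 had 31, 23, 48 and 43 listed cytosines in the WT bisulphite libraries and 0 in each NSun2-/- library, and the skin genes Krt5, Krt14, Krt1, Krt10, Col1a1 and Col3a1 had listed cytosines in all 8. The tRNA-seq libraries held between 17352126 and 36749727 counts. The bisulphite libraries held between 8681271 and 60455763 base calls, the fewest in NSun2-/- replicate 2.

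In NSun2-/- skin GlyGCC had far fewer unconverted reads at C48, C49 and C50 than in WT skin, while C38 lay between 85.7% and 87.8%. Reads were first summed over the 13 loci. At C38, the Dnmt2 site, 88.5%, 92.6%, 87.1% and 86.5% of reads were unconverted in the 4 WT libraries and 86.1%, 87.2%, 87.8% and 85.7% in the NSun2-/- libraries, so that the genotypes overlapped. At C48, WT libraries had 94.4%, 94.5%, 93.7% and 91.8%, against 50.6%, 32.9%, 49.7% and 44.1% without NSun2. At C49, they had 66.2%, 71.1%, 64.7% and 78.7%, against 18.3%, 19.8%, 17.3% and 19.8%. The genotypes lay apart at C48 and C49, and C49 was the lowest of the sites in both. At C50, WT libraries had 96.2%, 96.1%, 95.5% and 95.6% and NSun2-/- libraries 39.7%, 34.6%, 38.4% and 36.2%. Between 51610 and 909625 reads stood behind each percentage at C38.

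**Figure D1:**
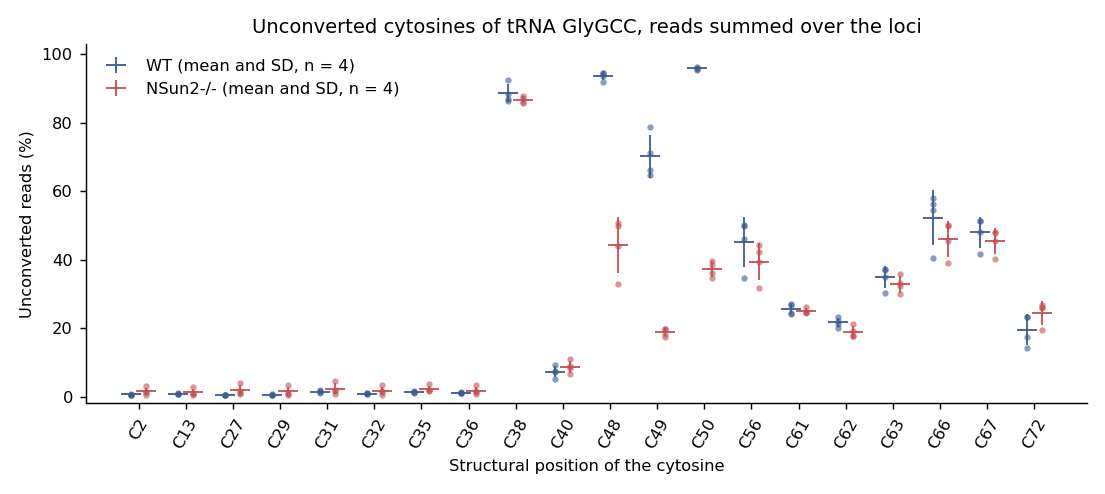
Percent of unconverted reads (vertical axis) at each cytosine of GlyGCC, by structural position (horizontal axis), with reads summed over the loci; points are the 4 libraries of a genotype, bars the mean and SD. The genotypes lie apart at C48, C49 and C50, where NSun2-/- means are 44.3%, 18.8% and 37.2% against 93.6%, 70.2% and 95.8% in WT, and overlap at C38.

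Tested cytosine by cytosine with edgeR's quasi-likelihood test over all 122736 listed cytosines, 32 of 262 GlyGCC cytosines passed an adjusted p of 0.05 with a difference of at least 10 percentage points, against 0.261% of all cytosines. All 32 were lower in NSun2-/- skin, against 0.147% of all cytosines called in that direction and 0.114% in the other, and all 32 lay at C48, C49 or C50. C50 was called at 13 of 13 loci, C48 at 10, C49 at 9 and C38 at 0. In the placed tRNA genes other than GlyGCC, 12.8% of 1407 cytosines were called, in either direction, against 12.2% in GlyGCC. Called as lower in NSun2-/- skin were 5.97% of those 1407, against the same 12.2% in GlyGCC, a difference that was not tested. In the families chosen for comparison this share was 15.8% in GlyTCC, 10.7% in ValCAC, 10.6% in AspGTC, 8.33% in GlyCCC and 1.79% in ValAAC. A high share is thus not particular to GlyGCC.

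The size of the difference varied between loci. It was largest at chr8.trna887, where C50 was 97.7% in the mean of the WT libraries and 12.5% in NSun2-/- skin (adjusted p = 1.2e-57) and C49 was 91.5% and 11.02% (adjusted p = 4.0e-38). chr1.trna1392 had 95.1% and 22.1% at C50 and 85.8% and 10.9% at C49. It differs from the 8 identical loci only by C54T, which a converted cytosine of theirs also gives, so that reads of both cannot be told apart where that base was converted. At the other end stood chr1.trna702, chr1.trna704 and chr1.trna706. Their C50 was between 96.7% and 97.2% in WT and between 74.6% and 76.5% without NSun2 (adjusted p between 0.0033 and 0.0070), the smallest losses at this site, and their C48 and C49 were not called. In these 3 loci C49 was low in WT already, between 23.7% and 26.1%, and C38 was between 68.4% and 70.1%, against a median of 87.9% over the 13 loci. They are also the thinnest, with 33 to 1027 reads at C38 per library. Summed over these 3 loci, C56 was 87.1% unconverted in WT and 78.1% in NSun2-/- skin, and C67 was 82.7% and 79.2%. At chr8.trna887 the means were 12.9% and 10.7% at C56 and 15.3% and 10.2% at C67. How far incomplete conversion enters the values at C48 to C50 was not tested. chr1.trna699, the remaining locus without a call at C49, had a WT mean of 52.0% and an NSun2-/- mean of 30.3%, with an adjusted p of 1.

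The 8 loci of identical sequence were not alike either. Their NSun2-/- means at C50 ran from 12.5% to 53.5% and their WT means at C49 from 51.3% to 93.8%. The authors' aligner keeps reads with a unique best alignment. How reads of one sequence were divided over the 8 loci is not given in the sources used here, so that differences among these loci cannot be told apart from differences in that division.

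**Figure D2:**
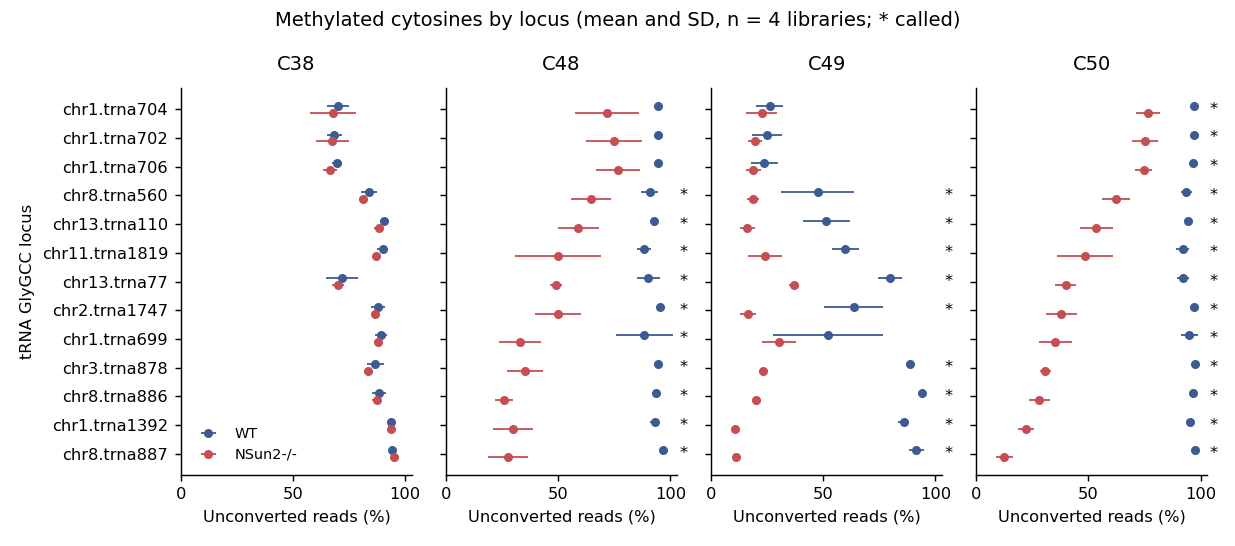
Percent of unconverted reads (horizontal axes) at C38, C48, C49 and C50 of each of the 13 placed loci (rows, ordered by C50 in NSun2-/- skin), as mean and SD of 4 libraries per genotype; stars mark calls. The loss at C50 runs from 20.6 percentage points at chr1.trna704 to 85.2 at chr8.trna887, and both genotypes overlap at C38 in all loci but 1.

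Every other cytosine went without a call. The cytosines 5′ of the anticodon were at most 5.71% in the genotype mean of every locus. The least converted library there was NSun2-/- replicate 2, the shallowest one. At C27, in the anticodon stem, the NSun2-/- libraries lay above the WT libraries at 13 of 13 loci, by 0.895 to 4.45 percentage points in the means. Of all tested cytosines 3.49% lay apart in this way, and among the other GlyGCC positions only C72 did, at 1 locus. The 13 loci are not independent of each other here, as 8 share a sequence. By edgeR's quasi-likelihood test C27 had an adjusted p of 0.0132 at chr13.trna110, 0.0158 at chr1.trna699, 0.0160 at chr3.trna878 and 0.0460 at chr11.trna1819. At the other loci it was 0.0648 or more. Every difference at C27 was below the 10 percentage points of a call. Without lying apart, the other cytosines 5′ of the anticodon also had higher NSun2-/- than WT means when summed over loci. Summed over loci, C27 had 0.364%, 0.521%, 0.324% and 0.499% in WT and 1.499%, 3.94%, 0.811% and 0.912% without NSun2. C40, next to the C38 site in the anticodon stem, had between 5.23% and 10.996% per library. From C56 to C72, in the TΨC loop and the 3′ strands of the TΨC and acceptor stems, the summed values of sites measured at 12 or more loci lay between 14.2% and 57.9% in both genotypes. At single loci the means there ran from 5.01% to 87.9% in WT and from 6.95% to 80.0% in NSun2-/- skin. Whether these cytosines were methylated or escaped conversion was not tested.

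GlyGCC was listed with the largest part of the tRNA-seq counts. It took between 54.5% and 63.9% of all counts in WT and between 49.5% and 62.3% in NSun2-/- skin, and nearly all of it was 5′ fragments, that is reads that begin at nucleotide 1 of the gene and are 25 to 40 nt long. They made up 53.6%, 51.6%, 62.2% and 60.4% of all counts in the WT libraries and 55.1%, 61.3%, 52.0% and 47.96% in the NSun2-/- libraries. Of all GlyGCC counts, 95.3% to 97.9% per library were of read sequences also listed at another family. For the 5′ fragments that family was GlyCCC, whose genes held 3.05% to 3.09% of the counts of these sequences, and 72.6% to 91.2% of the GlyCCC 5′ fragment counts were of them. The genotypes overlapped, and the GlyGCC difference of −2.84 percentage points was within the spread of libraries (exact two-sided permutation test, p = 0.514, 4 against 4). Of the 5′ fragments of all tRNAs, the GlyGCC share was 72.9%, 72.1%, 75.6% and 74.8% in WT and 68.2%, 68.0%, 64.2% and 59.4% in NSun2-/- skin. On this base the genotypes did not overlap (exact permutation test, p = 0.0286, the smallest that 4 against 4 can give). ValCAC, whose 5′ fragments came next, took 2.79% to 5.33% of counts in WT and 6.41% to 18.8% in NSun2-/- skin, and its part in this difference was not tested.

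Across the 42 isoacceptor families, 9 families (21.4%) had more 5′ fragments in NSun2-/- skin by edgeR's quasi-likelihood test and 0 had fewer, with 18 at an unadjusted p under 0.05. GlyGCC was not among them, with a log2 fold change of 0.13 ± 0.13 (SE) and an adjusted p of 0.463, near the median of 0.12 over all families. Its sign changed with the scaling, to −0.07 with library totals. Of the families chosen for comparison, ValCAC and ValAAC rose, by 1.54 ± 0.35 (adjusted p = 0.0048) and 1.45 ± 0.40 (adjusted p = 0.0135) on the log2 scale, while AspGTC had −0.61 ± 0.40 (adjusted p = 0.226). Of the other glycine isoacceptors, GlyCCC had −0.04 ± 0.20 and GlyTCC −0.63 ± 0.28 (adjusted p = 0.0903). Over the 8 libraries the log2 level of GlyGCC 5′ fragments was most like that of ValTAC (Pearson r = 0.845), GlyCCC (0.754) and AlaTGC (0.739), among 41 other families that share library and depth with it, GlyCCC also its read sequences.

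The GlyGCC 5′ fragments were cut within a window of 3 nucleotides. Reads of 30, 31 and 32 nt end at the C, the C and the T just before the GCC anticodon, and they are printed here with their share of all counts as the mean of 8 libraries:
30 nt, 14.5%: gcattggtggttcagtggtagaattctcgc
31 nt, 22.4%: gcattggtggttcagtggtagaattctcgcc
32 nt, 11.02%: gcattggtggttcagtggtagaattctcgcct

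Their proportions varied between libraries more than between genotypes. The 30-nt share of GlyGCC 5′ fragments was 52.9%, 10.5%, 18.9% and 23.3% in WT and 26.0%, 49.1%, 28.2% and 23.8% in NSun2-/- skin. The 32-nt share was 14.9%, 42.0%, 27.8% and 29.1% in WT and 20.6%, 10.99%, 20.3% and 23.1% without NSun2. WT replicate 1 and NSun2-/- replicate 2 stood out together with short ends. The mean length was 31.02 ± 0.30 nt (SD, n = 4) in WT and 30.87 ± 0.17 nt in NSun2-/- skin (exact permutation test, p = 0.371).

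**Figure D3:**
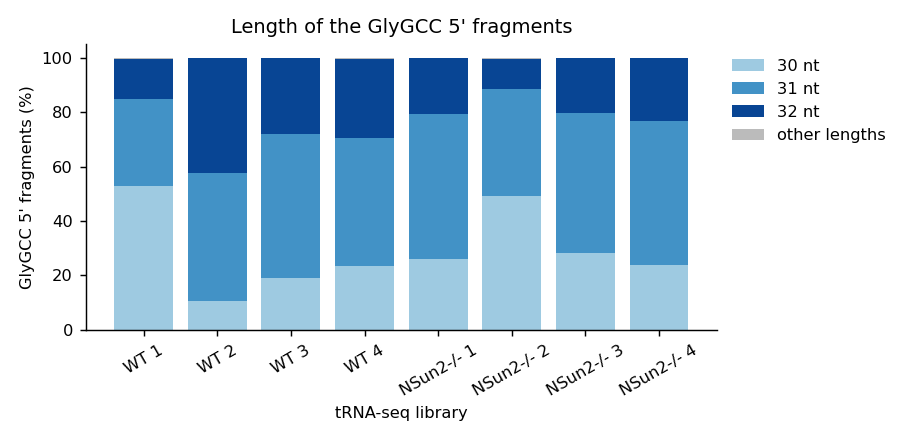
Share of GlyGCC 5′ fragments (vertical axis, %) of 30, 31 and 32 nt in each of the 8 tRNA-seq libraries. The 30-nt class runs from 10.5% to 52.9% among WT libraries alone, which covers the NSun2-/- range of 23.8% to 49.1%.

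Full-length GlyGCC reads were few beside those of fragments, and whether this reflects the tRNA in the tissue was not tested. Mature reads, which carry CCA and cover at least 90% of the gene, were scaled to the total counts of each library (CPM). They came to 432, 332, 215 and 217 CPM in WT and to 169, 52.2, 76.6 and 102 in NSun2-/- skin, and the genotypes did not overlap. In the fit across 17 families the log2 fold change was −0.76 ± 0.28, beside a median of −0.20 over all families. With an adjusted p of 0.168 it was not called. No family was called by edgeR (0.0%), nor by DESeq2. In edgeR's model across families 4 of them, GlyGCC included, had an unadjusted p under 0.05. The call turned with the setting. With at least 95% of the gene covered, the log2 fold change was −1.22 (adjusted p = 0.0101), and without NSun2-/- replicate 1 it was −1.001 (adjusted p = 0.0124). With library totals it was −1.58 without a call (adjusted p = 0.0730).

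The ratio of 5′ fragments to mature reads does not rest on scaling between libraries. On the log2 scale it was 10.28, 10.60, 11.50 and 11.44 in WT and 11.67, 13.52, 12.73 and 12.19 in NSun2-/- skin, higher in all 4 NSun2-/- libraries than in any WT library. The difference was 1.57 (exact permutation test, p = 0.0286). Mature reads were lower in all 4 NSun2-/- libraries than in any WT library, whereas the 5′ fragments overlapped between genotypes. The ratio was not computed for other families, so the rise cannot be called particular to GlyGCC. With library totals the median log2 fold change over families was −0.94 for mature reads and −0.07 for 5′ fragments. The ratio compares long with short reads, and how well each was captured in a library was not tested.

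3′ fragments with a CCA end, of 25 to 40 nt before the CCA, were listed at GlyGCC with 2417, 2190, 718 and 1011 CPM in WT and 313, 93.9, 323 and 668 in NSun2-/- skin. The log2 fold change was −0.78 ± 0.41 with an adjusted p of 0.199, in a fit that called 8 of 38 families (21.1%). Without NSun2-/- replicate 4 it was −1.22 (adjusted p = 0.0321). With library totals in place of TMM it was −2.18 (adjusted p = 0.0050), but the median over all families then moved from 0.03 to −1.57. Between 54.2% and 79.7% of these counts per library were of reads nearer in sequence to GlyTCC genes. The reads nearest to GlyGCC came to 901, 832, 216 and 356 CPM in WT and 120, 43.4, 90.1 and 135 in NSun2-/- skin, without overlap. Counted this way, a choice made after the values were seen, the log2 fold change was −1.19 ± 0.33 with an adjusted p of 0.0533.

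**Figure D4:**
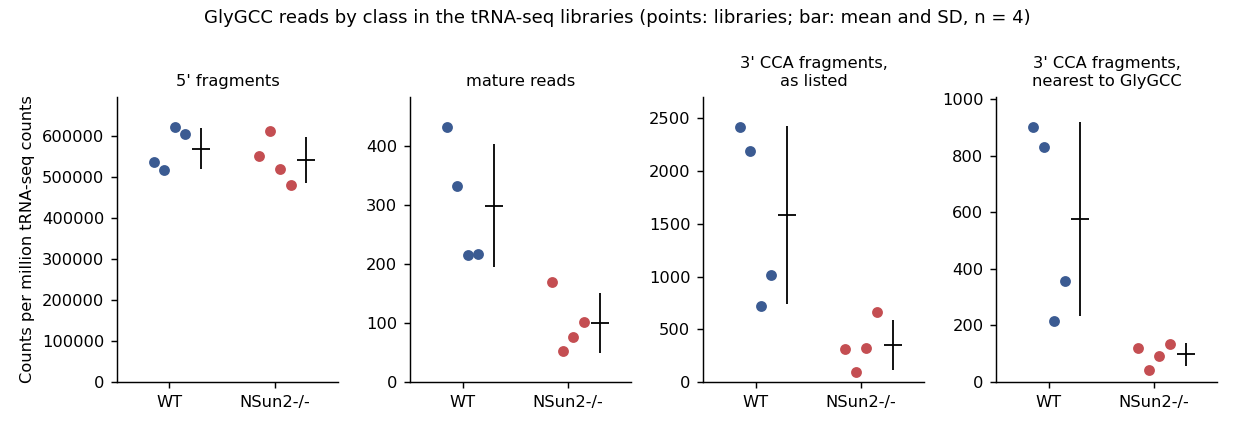
CPM (vertical axes, each from 0) of GlyGCC 5′ fragments, mature reads and 3′ CCA fragments, the last as listed and as nearest in sequence to GlyGCC; points are libraries, bars mean and SD of 4. Mature reads lie between 215 and 432 in WT and between 52.2 and 169 in NSun2-/- skin, while the 5′ fragments of both genotypes overlap.

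Among the 3′ fragments nearest to GlyGCC, 20.6% to 48.2% per library started at nucleotide 46, which is C48, and 8.09% to 37.9% at nucleotide 35, the last base of the anticodon. The genotypes overlapped at both starts.

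The marks of the loci differed in share between kinds of reads. T5G, a mark of chr1.trna702, chr1.trna704 and chr1.trna706, was in 1.34% to 3.07% of 5′ fragments. It was in 10.8% to 42.0% of the mature reads that reach nucleotide 5. A66C, the other mark of the same loci, was in 35.5% to 53.9% of all mature reads. T5G and A66C stood at 10.8% and 35.5% in WT replicate 1 and at 42.0% and 45.3% in WT replicate 3. Why these marks differ was not tested. C54T, the base of chr1.trna1392, was in 0% of the mature reads of all 8 libraries, although that gene was listed with 22.3% of all tRNA-seq counts and chr1.trna699 with 24.5%. The authors divided reads that match several genes among them, and counts per gene are therefore not used here as levels of single loci. A56T was in 91.4% to 95.6% of mature reads. Nucleotide 56 is position 58, a conserved adenosine that carries a methyl group in most tRNAs.

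Among single read sequences, 98 of the 1587 listed at GlyGCC genes were called by edgeR's quasi-likelihood test, 72 higher and 26 lower in NSun2-/- skin. Of all 12587 sequences, 2.34% were called, 0.93% higher and 1.41% lower. These calls were fragile, ranging from 0 to 71 when 1 library was left out. They were 0 without WT replicate 2, without WT replicate 3 or without NSun2-/- replicate 1, 1 without WT replicate 4, and 17, 24 and 27 without NSun2-/- replicates 3, 2 and 4. The calls fell on different kinds of reads. Of 346 reads with another base at nucleotide 9, 52 were higher and 0 lower, and of 237 reads with a CCA end, 0 were higher and 19 lower. The 28 reads that follow the gene without a difference from nucleotide 1 to before the anticodon gave 0 calls. These kinds were chosen with the calls known, and their reads overlap in sequence, so they are not independent of each other. The share of calls by kind was not computed for other families.

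The called sequences among the 10 most abundant GlyGCC reads all had another base at nucleotide 9, shown in capitals and given as the gene's base, the nucleotide and the read's base:
31 nt, G9C: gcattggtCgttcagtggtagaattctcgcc
31 nt, G9A: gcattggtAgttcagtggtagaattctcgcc
30 nt, G9C: gcattggtCgttcagtggtagaattctcgc

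The 31-nt read with G9C took 0.245%, 0.370%, 0.454% and 0.492% of counts in WT and 2.54%, 2.02%, 1.85% and 2.06% in NSun2-/- skin, a log2 fold change of 2.82 ± 0.39 (adjusted p = 0.0187). The read with G9A rose by 2.77 ± 0.40 (adjusted p = 0.0213) and the 30-nt read with G9C by 3.05 ± 0.64 (adjusted p = 0.0482) on the log2 scale. NSun2-/- libraries lay above WT libraries for each of them. When 1 library was left out, the adjusted p ranged from 0.0256 to 0.0856 for the first, from 0.0257 to 0.0858 for G9A and from 0.0727 to 0.149 for the 30-nt read. The same 31 nt without a change had a log2 fold change of 0.23 ± 0.38 (adjusted p = 0.848). The other abundant reads, among them the 32-nt and 31-nt fragments of the chr1.trna702 sequence, an 18-nt read from the 5′ end and a read with G6T, had adjusted p between 0.330 and 0.894.

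Summed over all GlyGCC 5′ fragments, a base other than the gene's stood at nucleotide 9 in 2.11%, 2.27%, 2.14% and 2.68% of counts in WT and in 12.2%, 10.9%, 9.46% and 11.6% in NSun2-/- skin. This sum was singled out after its values were seen and is given without a test. G9C and G9A were 5.49 and 5.30 times as frequent in NSun2-/- skin as in WT in the means, and G9T 1.74 times. Position 9 joins the acceptor stem to the D arm and carries a methylated purine in many tRNAs. The next most variable nucleotide, nucleotide 6, had 1.54% to 3.404% in WT and 2.30% to 2.47% without NSun2.

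Among other families with G at nucleotide 9, the genotypes overlapped in MetCAT, with means of 36.1% in WT and 35.7% in NSun2-/- skin, in GlnCTG, with 16.4% and 16.4%, and in GluCTC, with 5.78% and 6.18%. They lay apart, with smaller differences than in GlyGCC, in GluTTC, from 11.2% to 12.5% in WT and from 12.9% to 13.5% in NSun2-/- skin, and in ProAGG, from 19.1% to 20.1% and from 20.3% to 21.6%. AspGTC, with A there, had means of 22.5% and 28.8%, with overlap. GlyCCC, whose departures were counted against A and not G, had 6.47% and 9.07%, also with overlap. It is no separate comparison, since 72.6% to 91.2% of its 5′ fragment counts were of read sequences also listed at GlyGCC. The difference from GlyGCC was not tested. GlyGCC 5′ fragments without any departure from the gene made up 89.4%, 91.4%, 93.5% and 93.1% of those of WT and 83.7%, 85.3%, 86.1% and 84.0% of those of NSun2-/- skin.

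**Figure D5:**
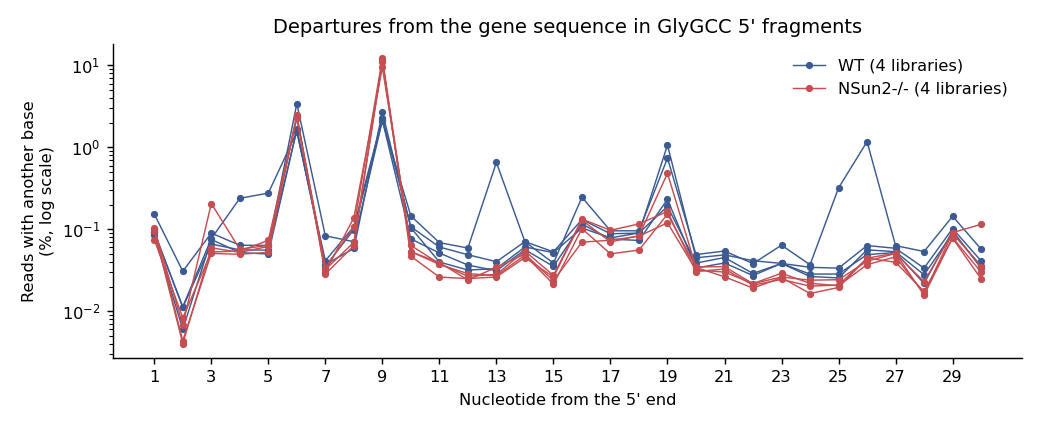
Percent of GlyGCC 5′ fragment counts with a base other than the gene's (vertical axis, log scale) at nucleotides 1 to 30 (horizontal axis), with 1 line per library. The NSun2-/- lines stand between 9.46% and 12.2% at nucleotide 9, above the WT lines at 2.11% to 2.68%.

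Pol III bound 9 of the 43 GlyGCC genes in WT skin, where a bound gene is one with 10 or more reads in each WT library whose reads scaled to the library total (RPM) reached 2-fold those of the WT input. All 9 were placed loci. Of the reads at the listed tRNA genes they held 2.89% (95% exact binomial interval 2.73% to 3.07%) and 2.77% (2.65% to 2.90%) in the WT libraries. In the NSun2-/- library they held 3.02% (2.91% to 3.13%). In the inputs they held 0.276% and 0.200%. The intervals cover counting error only.

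The strongest in the WT libraries were chr11.trna1819, with 7785 and 6050 RPM in WT and 6834 in NSun2-/- skin, and chr13.trna110, with 5751, 4102 and 4227 RPM. chr3.trna878, the locus inside Trim2, had 1004, 1774 and 1798 RPM, and it alone of the 9 failed a stricter rule of 20 reads and 4-fold over input. chr8.trna560, chr2.trna1747, chr8.trna886, chr13.trna77, chr1.trna699 and chr8.trna887 had between 1058 and 3738 RPM in the WT libraries and between 2071 and 4237 in NSun2-/- skin. chr1.trna702, chr1.trna704, chr1.trna706 and chr1.trna1392 had 50 to 295 reads in the WT libraries but did not reach 2-fold over input, where they had 13 to 112 reads. This rests on a single WT input. In NSun2-/- skin they had, in the same order, 3186, 3491, 3091 and 1083 RPM, against 483, 2486, 1795 and 345 RPM in the NSun2-/- input. The 30 genes without a position had at most 14 reads in any library.

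The log2 ratio of NSun2-/- to WT at the 9 bound genes had a median of 0.07 and ran from −0.20 at chr13.trna110 to 0.59 at chr8.trna887, with a pseudocount of 1 read. Between both WT libraries the ratio of the same genes ran from −0.49 to 0.80, which covers that range. Scaled to the sum over bound genes in place of the sum over all listed tRNA genes, the median was −0.14. None of the 9 passed 2-fold, beside 3 of all 226 bound genes (1.33%), whose median was 0.17. With 1 NSun2-/- library the difference has no replicate check.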

How the data were processed

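RNA bisulphite sequencing, tRNA-seq and Pol III ChIP-seq of WT and NSun2-/- back skin were analysed from the deposited tables, with groups taken from the sample labels. For bisulphite sequencing the authors deposited 2 read counts per cytosine, unconverted and converted, with the unconverted percent, listing cytosines from 10 reads (Bismark 0.7.6 in the submitters' processing notes). The positions fell on cytosines of mm9 after adding 1. For tRNA-seq and Pol III ChIP-seq the authors aligned reads to mm9 with Bowtie (up to 2 mismatches), divided reads with several matches in proportion to uniquely matching reads, trimmed CCA ends from unaligned tRNA-seq reads, and deposited counts that are not scaled to library size.

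Read sequences were placed on the tRNA genes with at most 4 mismatches. A cytosine was tested when 3 or more libraries per genotype covered it with 10 reads. The paper's filter of reads with many unconverted cytosines needs single reads and was not applied here. edgeR 4.0.16 (quasi-likelihood test, TMM, filterByExpr; R 4.3.3) was run across all cytosines, read sequences or isoacceptor families, with Benjamini-Hochberg adjustment and a threshold of 0.05. limma 3.58.1 and DESeq2 1.42.0 were alternatives. One value per library was compared by exact two-sided permutation over 70 assignments. The tests were tested on simulated data. Counts of tRNA-seq are not independent molecules, and no interval was computed from them. The labels do not say that replicates of tRNA-seq come from separate mice, while the paper describes its replicates as independent and biological. The p-values set the difference between genotypes against the spread between libraries.

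All GlyGCC loci were described, together with the 10 most abundant read sequences, the families GlyCCC, GlyTCC, AspGTC, ValAAC and ValCAC, and the 3 families most like GlyGCC. Members and lists were chosen with earlier results of these data known.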

Additional observations from a re-analysis of the deposited data

Results flagged for a closer look

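The 32-nt 5′ fragment that follows the GlyGCC sequence took 5.47% of all counts in NSun2-/- replicate 2, while the other 3 NSun2-/- libraries lay between 8.78% and 9.26%. The gap between this library and the next was 0.872 of the range of the 4. It was the only one of 42 groups of 4 libraries looked at in this way whose lowest or highest value stood so far from the rest, where chance alone gives about 1 in 20 groups. The same library had the highest 30-nt share among NSun2-/- libraries and the most tRNA-seq counts of all 8.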

How the results depend on the processing

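The log2 fold change of GlyGCC 5′ fragments was not called under any setting, and its sign turned with reads of 30 to 36 nt (−0.11), starts at nucleotides 1 to 3 (−0.0012), sequences listed at GlyGCC alone (−0.080), DESeq2 (−0.040), library totals (−0.074), and the family of the nearest gene, chosen after seeing the data (−0.10). It ranged from −0.18 to 0.18 with 1 library left out. Called families, 9 higher and 0 lower with TMM, became 8 higher and 6 lower with library totals, 9 and 9 with DESeq2 and 8 and 10 with the nearest gene. Over all 5′ fragments, the GlyGCC share differed by −8.90 percentage points (exact permutation test, p = 0.0286). The log2 ratio to mature reads ranged from 1.24 to 1.86 with 1 library left out (exact permutation p from 0.0286 to 0.0571). Mature reads were called with at least 95% of the gene (−1.22, adjusted p = 0.0101) and ranged from −1.001 to −0.55 without 1 library. With library totals they had −1.58 (adjusted p = 0.0730) and the median over families moved from −0.20 to −0.94. 3′ fragments had −2.18 with library totals, where called families went from 4 higher and 4 lower to 0 and 17, and ranged from −1.22 to −0.40 without 1 library. Called GlyGCC read sequences numbered 98, 270 with DESeq2, 21 without a filter and 0 to 71 without 1 library. The unchanged 31-nt read had −0.13 and that of the chr1.trna702 sequence −0.14 with library totals, the latter from −0.031 to 0.49 without 1 library. limma called 21 cytosines, all lower, with C48 at 6 loci, C49 at 4 and C50 at 11. Without 1 library, calls ranged from 26 to 34 (1 of them higher without NSun2-/- replicate 2 or 3) and C50 was called at 10 to 13 loci, 10 without WT or NSun2-/- replicate 1. The causes of these changes were not tested.

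Replicate numbers did not pair the libraries: deviations of same-numbered libraries correlated with r from −0.15 to 0.31 (bisulphite) and from −0.37 to 0.13 (tRNA-seq). With a replicate block, calls of read sequences fell to 0 and of cytosines came to 33 (1 higher), and mature GlyGCC had −0.83 (adjusted p = 0.0166). The Pol III median was −0.14 when scaled to the sum over bound genes, and between 0.04 and 0.17 with 1 WT library left out.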
